A study of Mus musculus with 6 samples.

Results

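The genes described here are 44 genes of the integrated stress response and the unfolded protein response, taken by gene name from a raw count table of 54532 genes. They fall into 16 targets or partners of the transcription factor ATF4, 8 cytosolic aminoacyl-tRNA synthetases, which load amino acids onto tRNAs, and 20 genes of protein folding and stress sensing in the endoplasmic reticulum (ER). All 44 were found and all 44 passed the filter on low counts. The least abundant was Pycr1, at 6.74 CPM in cells grown alone (counts scaled to the size of each library), so no gene entered only through the group in which it was high.

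RNA was sequenced from 6 libraries of RAW264.7 cells, a mouse macrophage-like tumour line labelled wild type in all of them. In 3 libraries the macrophages had been cocultured for 48 h with TTJ cells and were then sorted away from them, and in 3 libraries sorted macrophages had been grown alone. TTJ cells lack Tsc2 and come from an angiomyolipoma, a kidney tumour, of a mouse model of tuberous sclerosis complex. The study asked how such cells affect macrophage polarization. Both lines were kept in DMEM with serum, the controls received no treatment, and the labels name replicates A to C in each group without saying whether these were separate cultures. P-values therefore reflect the scatter among these 6 libraries, possibly only technical, and each condition rests on 1 macrophage line and 1 TTJ line.

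As background, ATF4 is made when kinases that sense lack of amino acids, ER stress, viral RNA or heme shortage phosphorylate the translation factor eIF2alpha, which slows most protein synthesis but favours translation of the Atf4 message. ATF4 then raises genes for amino acid synthesis and import, tRNA charging and, in longer stress, cell death. The unfolded protein response has 2 further arms beside the kinase PERK: IRE1 splices the Xbp1 message into the code for an active factor, and ATF6 is cut free from the membrane, and both raise chaperones and ER-associated degradation (ERAD), the export of misfolded proteins to the proteasome. In macrophages this machinery folds the surface receptors and cytokines that the cells make. Gene counts show neither ATF4 protein nor Xbp1 splicing.

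Libraries held 14329487 to 17358280 counts on genes, and the common biological coefficient of variation was 5.29%. The 12 macrophage markers summed to 13295 to 13648 CPM in coculture, against 12773 to 12838 CPM alone, with all 12 detected in both groups. By the test given below, 5 of the 12 were higher (41.7%) and 3 lower (25%), against 21.7% and 15.2% of all genes tested. Their log2 fold changes, coculture over alone, ran from -0.30 to 2.47. Of 14 renal and simple epithelial markers, 11 were at 0 in all 3 lone libraries, and the list summed to 337 to 391 CPM in coculture, against 0 to 0.115 CPM alone; Epcam, Lhx1, Cdh6 and Umod were at 0 in all 6 libraries. Of 14 mesenchymal and smooth muscle markers, 8 were at 0 in all lone libraries and 3 of these in all 6, and the list summed to 1564 to 1622 CPM in coculture, against 996 to 1056 CPM alone, of which Vim, which macrophages also express, made up 1528 and 1015 CPM on average. The 688 genes with no count alone and at least 10 in coculture took 0.294% ± 0.0172 of the counts in coculture (SD, n = 3). Mitochondrial genes took 1.39% ± 0.0377 of counts in coculture and 1.65% ± 0.0995 alone (SD, n = 3 each). These differences run along the same 2 groups as every result below, and their part in the results was not tested.

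In coculture, 12 of the 44 genes were higher and 18 were lower than in cells grown alone, while 14 did not pass the threshold (edgeR's quasi-likelihood test, Benjamini-Hochberg adjusted p under 0.05 over the 12972 genes tested). Over all genes tested, 21.7% were called higher and 15.2% lower, against 27.3% and 40.9% of the 44, and 36.9% were called in either direction. The groups did not overlap for 12 of the 44 with coculture higher and 21 with coculture lower; over all genes tested this held for 47.1%, with coculture higher for 26.1% and lower for 21%. Among the 9308 tested genes at least as abundant alone as Pycr1, 16.6% were higher and 20.2% lower. Changes were small: the median log2 fold change of the 44 was -0.075, against 0.0029 over all genes tested and -0.029 over those 9308. The median absolute log2 change of the 9308 was 0.13. No gene of the 44 changed 2-fold. Of all tested genes, 9.34% were at least 2-fold higher and 0.447% at least 2-fold lower with an adjusted p under 0.05. Those shares also count genes scarce or absent alone, so they are no like-for-like measure for the 44. The largest change of the 44 was that of Pycr1, 1.58-fold lower. The ATF4 targets split into 4 higher and 8 lower, the synthetases had 0 higher and 7 lower, and the ER genes had 8 higher and 3 lower. In sorted bulk RNA, fewer cells of a kind and less RNA per cell cannot be told apart.

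**Figure D1:**
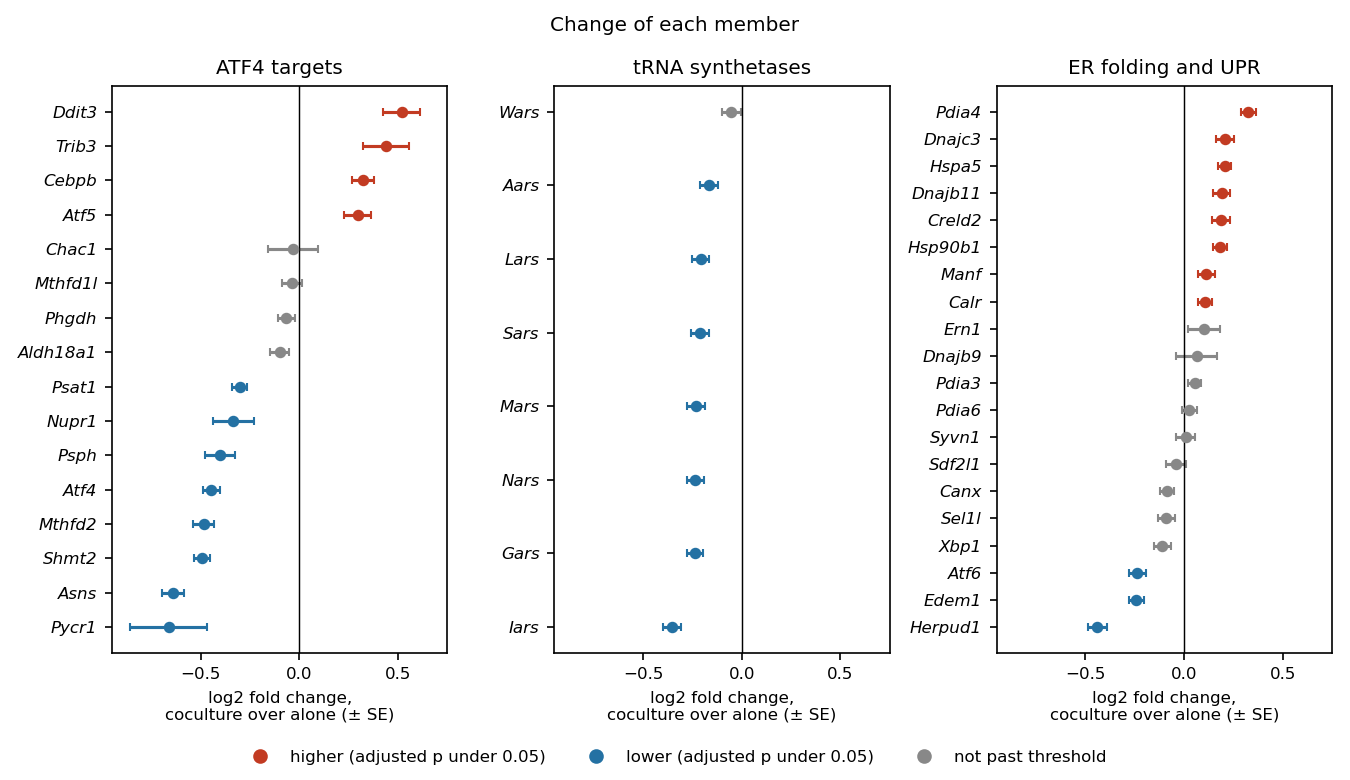
Log2 fold change of each of the 44 genes, coculture over alone, with its standard error (horizontal axis), ordered by size within ATF4 targets, tRNA synthetases and ER folding genes. Red marks genes called higher, blue genes called lower and grey genes past no threshold; the synthetases lie left of 0 throughout, and the ER genes run from -0.44 (Herpud1) to 0.33 (Pdia4).

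The message of ATF4 itself fell, while 3 related factors rose. Atf4 (chr15:80255184-80257541, plus strand, mm10) stood at 239, 239.7 and 229 CPM in coculture, against 326, 310.3 and 327 CPM alone. Every cocultured library was below every lone library, and the mean was 26.6% lower (log2 fold change -0.45, SE 0.0424, adjusted p = 3.5e-09 by edgeR's quasi-likelihood test). Per gene length, the deposited FPKM values averaged 99.7 ± 2.67 in coculture and 136 ± 4.03 alone (SD, n = 3 each). Ddit3, which encodes CHOP, the factor linked to death in prolonged stress, had 24.3, 25.5 and 28.4 CPM in coculture, against 19.1, 17.7 and 18.0 CPM alone. It was higher in all cocultured libraries, with the top value in replicate C, and 1.43-fold on average (log2 0.52, SE 0.0935, adjusted p = 7.4e-05). Its exons share 68 bases, 3.97% of their length, with those of Mars on the opposite strand, and whether counting used strand is not known here.

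Atf5, a relative of ATF4 that is translated under the same control, had 45.0, 44.3 and 45.0 CPM in coculture, against 38.5, 35.8 and 35.3 CPM alone (log2 0.29, SE 0.0684, adjusted p = 0.00123). Cebpb, a leucine-zipper factor that pairs with ATF4 and also drives inflammatory genes in macrophages, had 74.6, 78.2 and 74.1 CPM in coculture, against 59.9, 58.2 and 63.3 CPM alone (log2 0.32, SE 0.0576, adjusted p = 6.67e-05). Both were higher in all 3 cocultured libraries than in any lone library. Cebpb shares 20.7% of its exon bases with Tmem189 and Atf5 4.11% with Nup62, both on the opposite strand. Nupr1, a small chromatin-bound stress protein, went the other way at 16.6, 19.8 and 20.6 CPM in coculture, against 25.1, 21.3 and 25.6 CPM alone, with the groups close to each other (log2 -0.33, SE 0.103, adjusted p = 0.0121). Its call was lost without coculture replicate A (adjusted p = 0.0836) and without alone replicate C (0.0584), with a range over its alternatives of 0.00407 to 0.0836.

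**Figure D2:**
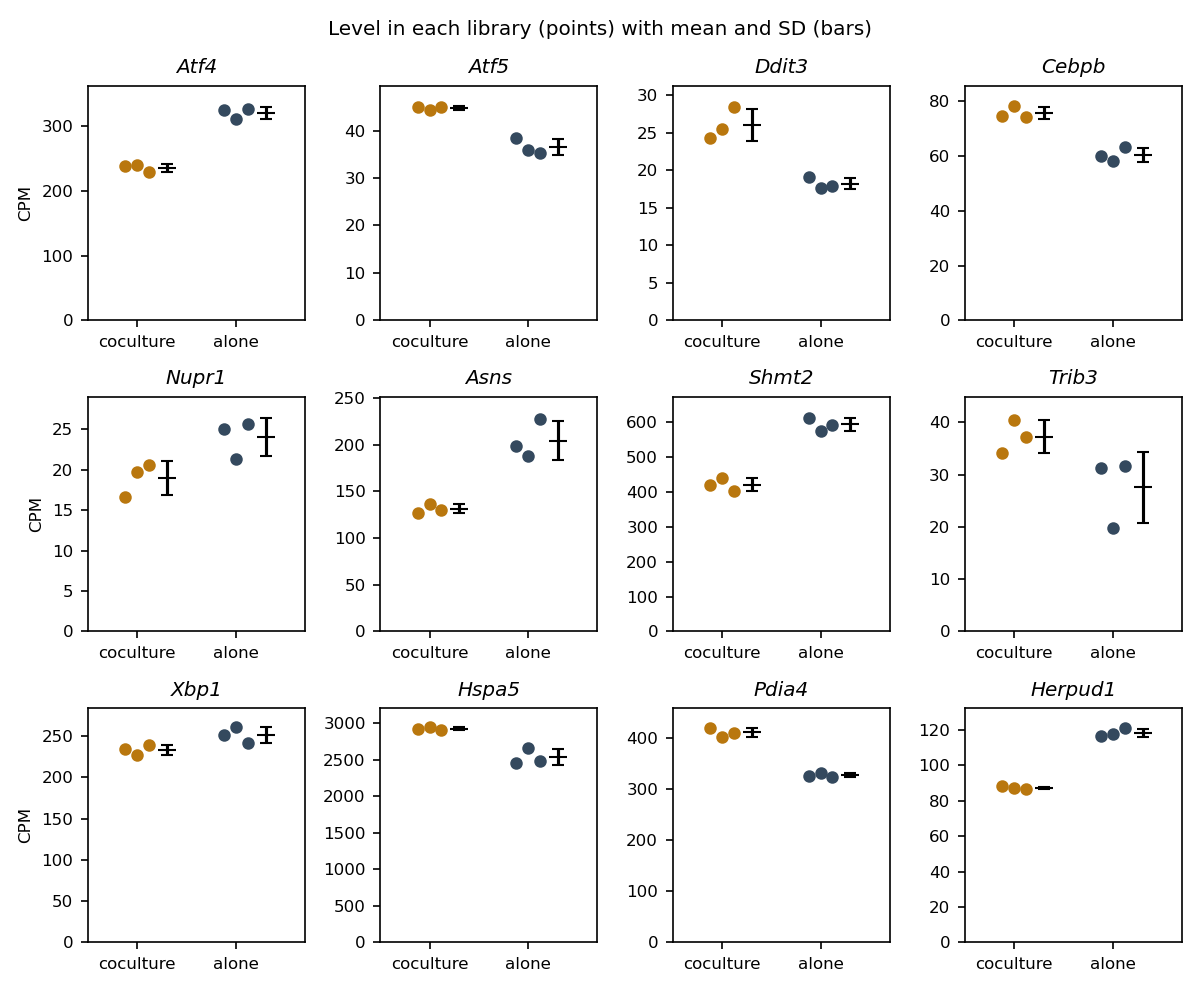
Expression of 12 of the genes in each library in CPM (vertical axes, from 0), coculture left and alone right, with the mean and SD beside the points. Atf4, Asns, Shmt2 and Herpud1 lie lower in coculture without overlap, Ddit3, Cebpb, Hspa5 and Pdia4 higher, and 1 lone library of Trib3 lies far below the other lone ones.

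Enzymes that make amino acids moved downward where they moved. Of 6 on the list, 4 fell, 0 rose and 2 did not pass, against 15.2% lower and 21.7% higher of all genes tested. Asns, asparagine synthetase, had 127, 137 and 129.9 CPM in coculture, against 198, 188 and 228 CPM alone, and the cocultured libraries lay close together well below the lone ones (1.56-fold lower, log2 -0.64, SE 0.0573, adjusted p = 1.17e-09). Pycr1, which makes the last step to proline, was scarce at 4.97, 4.47 and 3.41 CPM in coculture, against 6.88, 5.40 and 7.95 CPM alone, with no overlap between the groups. Its log2 change of -0.66 (SE 0.193, adjusted p = 0.00828) did not pass without coculture replicate C (adjusted p = 0.0613) or without alone replicate C (0.0624), with a range over its alternatives of 0.00176 to 0.0624.

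Of the 3 enzymes of serine synthesis, 2 were lower and 1 did not pass the threshold, against 15.2% lower of all genes tested. Psph, the phosphatase that releases serine, had 42.3, 50.4 and 41.7 CPM in coculture, against 61.1, 54.1 and 62.6 CPM alone (log2 -0.40, SE 0.0756, adjusted p = 0.000118); 10.4% of its exon bases are shared with Cct6a on the opposite strand. Psat1, the aminotransferase before it, averaged 566 ± 19.7 CPM in coculture and 698 ± 15.6 CPM alone (SD, n = 3 each; log2 -0.30, adjusted p = 4.82e-07). Both were lower in every cocultured library than in every lone one. Phgdh, the entry enzyme of the pathway, had overlapping groups at 312, 340.0 and 310.0 CPM in coculture, against 342, 331 and 333 CPM alone (log2 -0.065, adjusted p = 0.258). Aldh18a1, which starts proline synthesis, overlapped too (log2 -0.10, adjusted p = 0.1). It passed without alone replicate B (adjusted p = 0.0262), with a range over its alternatives of 0.0262 to 0.341.

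The mitochondrial one-carbon enzymes, which carry serine's carbon on folate, had 2 lower and 0 higher of 3, against 15.2% and 21.7% of all genes. Shmt2, which takes that carbon from serine, had 420.1, 439 and 404 CPM in coculture, against 612, 576 and 592 CPM alone (log2 -0.50, SE 0.0407, adjusted p = 2.37e-10). Mthfd2, the dehydrogenase that follows, had 154, 152 and 145 CPM in coculture, against 226, 189 and 215 CPM alone (log2 -0.48, SE 0.0543, adjusted p = 6.35e-08). For both, the highest cocultured library was below the lowest lone one. Mthfd1l, which releases formate, overlapped between groups (178 ± 12.8 CPM in coculture and 183 ± 6.77 CPM alone, SD, n = 3 each; log2 -0.037, adjusted p = 0.619).

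Of the 2 stress effectors, 1 was higher and 1 did not pass the threshold. Trib3, a pseudokinase that restrains ATF4 and CHOP signalling, had 34.1, 40.5 and 37.1 CPM in coculture, against 31.2, 19.8 and 31.6 CPM alone. All cocultured libraries were above all lone ones, but alone replicate B stood well below the other lone libraries (log2 0.44, SE 0.116, adjusted p = 0.00406). Chac1, which breaks down glutathione, had 12.7, 14.7 and 12.9 CPM in coculture, against 12.4, 12.3 and 16.3 CPM alone, with groups that overlapped (log2 -0.031, SE 0.126, adjusted p = 0.882). Summed, the 16 ATF4 targets held 2458 ± 62.3 CPM in coculture and 2995 ± 106 CPM alone (SD, n = 3 each). Of the 16, 50% were lower, against 15.2% of all genes tested, and 25% higher, against 21.7%; their median log2 change was -0.20. The share that was higher is near that of all genes. Among genes at least as abundant alone as Pycr1, 16.6% were higher and 20.2% lower.

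Promoters were read to show where the ATF4 recognition element lies in these genes. The core letters of the C/EBP-ATF response element, TGATGNAA on either strand, were searched from 250 bases before to 50 bases after the RefSeq start of each gene (GRCm38.p6, the assembly of mm10). A promoter was held for 39 of the 44 genes, not for Lars, Nars, Wars, Atf6 and Manf. The letters occurred in 9 of the 39 (23.1%), against 3.97% of all 32851 promoters. The 9 were Nupr1, Chac1, Trib3, Asns and Pycr1 among ATF4 targets, Aars, Gars and Iars among synthetases, and Herpud1 among ER genes. The matches of Trib3 and Iars, and 1 of the 2 of Aars, lay after the start site. Of these 9 genes, 7 were lower in coculture, Trib3 was higher and Chac1 did not pass the threshold. Among the 263 tested genes with such a promoter outside the 44, 25.9% were higher and 16.7% lower, against 22.8% and 15.9% of the 9379 tested genes outside the 44 with any promoter. The sequences below, 5′ to 3′ on each gene's own strand, are those of 4 genes that fell, with the matched letters in capitals; a match is a description of the sequence, not of binding. The stretch of Asns is chr6:7693214-7693243 (minus strand), that of Pycr1 chr11:120643770-120643908 (minus), that of Gars chr6:55037841-55038000 (plus) and that of Herpud1 chr8:94386269-94386428 (plus), from RefSeq, GRCm38.p6.
Asns: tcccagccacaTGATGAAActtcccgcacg
Pycr1: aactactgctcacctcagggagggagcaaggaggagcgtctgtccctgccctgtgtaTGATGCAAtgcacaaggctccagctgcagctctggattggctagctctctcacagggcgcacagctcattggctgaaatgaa
Gars: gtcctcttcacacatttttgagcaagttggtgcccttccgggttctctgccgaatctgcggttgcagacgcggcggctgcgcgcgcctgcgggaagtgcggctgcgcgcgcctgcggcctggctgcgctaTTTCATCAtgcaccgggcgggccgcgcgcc
Herpud1: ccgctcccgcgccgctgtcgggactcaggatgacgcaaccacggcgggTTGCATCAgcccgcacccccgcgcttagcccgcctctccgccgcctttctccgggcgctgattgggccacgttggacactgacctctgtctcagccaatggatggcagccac
The Asns match starts 23 bases before the RefSeq start, the Gars match 30 bases before, the Pycr1 match 103 bases before and the Herpud1 match 112 bases before. The Asns match lies inside the deposited gene model, which begins at 7693254 on the minus strand.

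All but 1 of the tRNA synthetases fell, by log2 changes of -0.17 (Aars) to -0.35 (Iars). In coculture 7 of the 8 were lower, without overlap between the groups, and 0 were higher. That is 87.5% lower, against 15.2% of all genes tested and 20.2% of those at least as abundant alone as Pycr1. The median log2 change of the 8 was -0.22. Iars, which charges isoleucine, changed most, with 315, 313 and 307 CPM in coculture, against 425, 369 and 399 CPM alone (log2 -0.35, SE 0.0459, adjusted p = 8.05e-07). Gars, for glycine, had 314, 313 and 316 CPM in coculture, against 365, 368 and 379.9 CPM alone (log2 -0.24, SE 0.0396, adjusted p = 2.63e-05). In both genes the 3 cocultured libraries were nearly level with each other and all below the lone ones.

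Nars, for asparagine, had 421, 429.6 and 411 CPM in coculture, against 501, 469 and 513 CPM alone (log2 -0.23, adjusted p = 5.4e-05). Mars, for methionine, had 248, 253 and 231 CPM in coculture, against 297, 284 and 276 CPM alone (log2 -0.23, adjusted p = 0.000219). In each, the lone library closest to coculture still lay above all 3 cocultured ones, although Mars shares 68 exon bases with Ddit3, which rose. Lars, for leucine, had 261, 268 and 262 CPM in coculture, against 319, 298 and 296 CPM alone (log2 -0.21, adjusted p = 0.000365). Sars, for serine, had 379, 392 and 377 CPM in coculture, against 462, 409.8 and 458 CPM alone (log2 -0.21, adjusted p = 0.000464). Alone replicate B was the lowest lone library for Sars, Iars, Nars and Aars. Aars, for alanine, showed the smallest change that passed (325 ± 8.65 CPM in coculture and 364 ± 18.4 CPM alone, SD, n = 3 each; log2 -0.17, adjusted p = 0.00376).

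Wars, for tryptophan, the synthetase that interferon induces in macrophages, was the exception. It had 202, 199 and 209.9 CPM in coculture, against 225, 202 and 208 CPM alone, with overlap (log2 -0.053, SE 0.0470, adjusted p = 0.414). Summed, the 8 genes held 2465 ± 33.3 CPM in coculture and 2872 ± 117 CPM alone (SD, n = 3 each). The count of 7 lower stayed at 7 under every alternative run. In data simulated with few changed genes and 1 common spread, 56.7% of the genes with a log2 change of 0.3 were recovered. A change as small as that of Wars can be missed, although changes under 0.3 were called here, such as -0.17 for Aars.

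**Figure D3:**
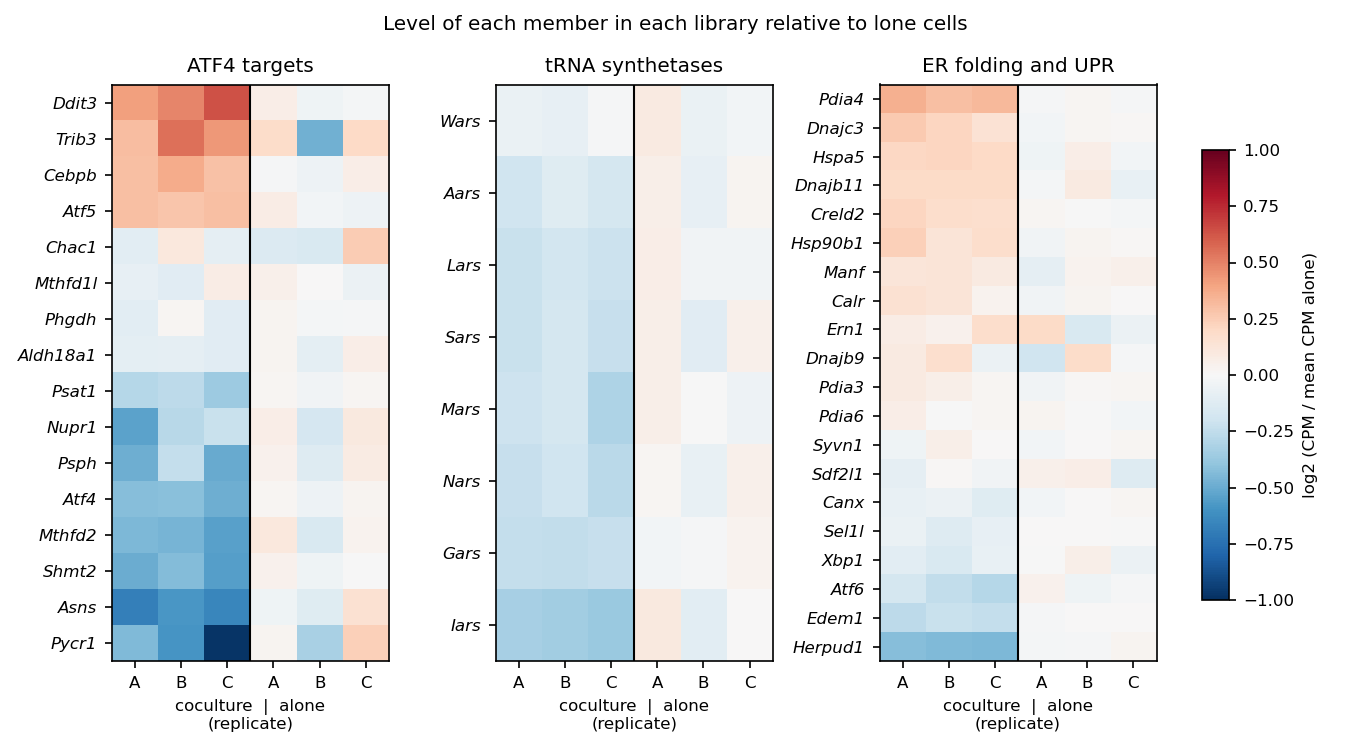
Level of each gene in each library as log2 of its CPM over the mean CPM of the lone libraries (colour, blue lower and red higher), with coculture replicates A to C left of the black line and lone replicates A to C right of it. The synthetase panel is blue in all 3 cocultured columns below the row of Wars, Trib3 is low in alone replicate B, and Pycr1 is darkest in coculture replicate C.

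The 3 sensors and regulators of the ER did not rise. Atf6, the sensor that becomes a transcription factor, had 208, 198 and 193 CPM in coculture, against 243, 229 and 234 CPM alone, without overlap (log2 -0.24, SE 0.0449, adjusted p = 0.000147). Xbp1, the message spliced by IRE1, had 234, 227 and 239 CPM in coculture, against 251, 261 and 242 CPM alone. The cocultured libraries were all lower, by a little, and the change missed the threshold (log2 -0.11, SE 0.0440, adjusted p = 0.054). It passed with upper quartile scaling (adjusted p = 0.0354), with no filter (0.0465) and without alone replicate C (0.0286), with a range over its alternatives of 0.0286 to 0.217. Ern1, which encodes IRE1, had 42.1, 41.4 and 45.3 CPM in coculture, against 45.9, 36.0 and 38.4 CPM alone, and alone replicate A, the highest of all 6, made the groups overlap (log2 0.10, adjusted p = 0.345). Without that library it was higher in coculture (adjusted p = 0.0363), with a range over its alternatives of 0.0363 to 0.838.

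Several ER chaperones rose by small amounts. Of 6 Hsp70 and Hsp90 chaperones and cochaperones, 4 were higher, 0 lower and 2 did not pass. Among all genes tested, 21.7% were higher and 15.2% lower. Hspa5 (chr2:34771970-34777547, plus strand), which encodes BiP, the main ER chaperone and the brake on all 3 sensors, had 2927, 2944 and 2904 CPM in coculture, against 2462, 2662 and 2484 CPM alone. All cocultured libraries lay above all lone ones and close together (1.15-fold, log2 0.21, SE 0.0328, adjusted p = 1.49e-05). Dnajc3, a BiP cochaperone that also inhibits eIF2alpha kinases, had 192, 186 and 177 CPM in coculture, against 157, 163 and 162 CPM alone (log2 0.21, SE 0.0460, adjusted p = 0.0008). Dnajb11, another BiP cochaperone, had 279, 279 and 279 CPM in coculture, against 241, 259.6 and 232 CPM alone (log2 0.19, SE 0.0449, adjusted p = 0.00145). Neither gene's groups overlapped. Hsp90b1, the ER Hsp90 known as GRP94 that folds Toll-like receptors and integrins, averaged 1864 ± 72.9 CPM in coculture and 1645 ± 37.3 CPM alone (SD, n = 3 each; log2 0.18, adjusted p = 0.000152). Dnajb9 (log2 0.064, adjusted p = 0.679) and Sdf2l1 (log2 -0.039, adjusted p = 0.601), both BiP partners, overlapped between groups.

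Among the disulphide isomerases, which form and rearrange disulphide bonds, 1 of 3 changed, against 36.9% of all genes tested. Pdia4 had 419.8, 403 and 409.6 CPM in coculture, against 326, 332 and 324 CPM alone, the largest increase among the ER genes, with a wide gap between the groups (1.25-fold, log2 0.33, SE 0.0394, adjusted p = 2.11e-07). Pdia3, which works with the lectin chaperones, and Pdia6, which acts on IRE1, had log2 changes of 0.054 (adjusted p = 0.23) and 0.028 (adjusted p = 0.6) and overlapping groups. The 2 lectin chaperones, which hold newly made glycoproteins, gave different results. Calr averaged 1949.7 ± 83.5 CPM in coculture and 1811 ± 41.7 CPM alone (SD, n = 3 each; log2 0.11, adjusted p = 0.0186), and Canx averaged 1129.8 ± 26.8 CPM in coculture and 1199 ± 20.5 CPM alone (SD, n = 3 each; log2 -0.085, adjusted p = 0.0532). Calr lost its call without coculture replicate A (adjusted p = 0.131) or B (0.0888), with a range over its alternatives of 0.00236 to 0.131. Canx gained one with upper quartile scaling (0.0317), with no filter (0.0328), by DESeq2 (0.0246) and without alone replicate A (0.0364), with a range over its alternatives of 0.0246 to 0.238.

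Creld2 and Manf, small ER proteins induced by and secreted under ER stress, were both higher. Creld2 averaged 172 ± 3.05 CPM in coculture and 151 ± 2.11 CPM alone (SD, n = 3 each; log2 0.19, SE 0.0445, adjusted p = 0.00153). Manf had 319, 321 and 312 CPM in coculture, against 276, 301 and 303 CPM alone (log2 0.11, SE 0.0437, adjusted p = 0.0432), with the cocultured values only just above the 2 higher lone ones. Its call was lost without coculture replicate A (adjusted p = 0.114) or B (0.134), without alone replicate A (0.181) or B (0.0547), with upper quartile scaling (0.0656) and with no filter (0.057), with a range over its alternatives of 0.026 to 0.181.

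The ERAD genes were not higher: of 4, 2 fell, 0 rose and 2 did not pass. Among all genes tested, 15.2% were lower and 21.7% higher. Herpud1 (chr8:94386438-94395377, plus strand), which organises the ERAD complex at the membrane, had 88.0, 87.1 and 86.7 CPM in coculture, against 116, 118 and 121 CPM alone. The 3 libraries of each group were tightly bunched and far apart from the other group (1.36-fold lower, log2 -0.44, SE 0.0479, adjusted p = 4.04e-08). Edem1, which marks misfolded glycoproteins for disposal, had 427, 439 and 435 CPM in coculture, against 508, 516 and 515 CPM alone, again without overlap (log2 -0.24, SE 0.0374, adjusted p = 1e-05). Sel1l, the scaffold of the HRD1 ubiquitin ligase, had 243, 233 and 240.2 CPM in coculture, against 254, 255 and 253 CPM alone, lower in all 3 but not past the threshold (log2 -0.09, adjusted p = 0.0977). Syvn1, HRD1 itself, was close to level at 101 ± 3.53 CPM in coculture and 100.4 ± 1.5 CPM alone (SD, n = 3 each; log2 0.0089, adjusted p = 0.91).

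Over the 20 ER genes, 40% were higher and 15% lower, against 21.7% and 15.2% of all genes tested, so the lower share is that of all genes. It is below the 20.2% of genes at least as abundant alone as Pycr1, of which 16.6% were higher. The median log2 change of the 20 was 0.059, and their summed expression was 13016 ± 215 CPM in coculture and 12263 ± 233 CPM alone (SD, n = 3 each). The most abundant genes weigh most in that sum. Hspa5, Calr and Hsp90b1 averaged 2925, 1950 and 1864 CPM in coculture, against 2536, 1811 and 1645 CPM alone. The sum therefore does not show a rise across the list. With upper quartile scaling or with no filter the lower count was 5 in place of 3, by the addition of Xbp1 and Canx.

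The ER stress element, to which ATF6 and XBP1 bind together with NF-Y, was searched in the same promoter windows as CCAAT, 9 bases of any kind and CCACG, on either strand. It occurred in 8 of the 18 ER genes with a promoter (44.4%) and in 0 of the 16 ATF4 targets and 0 of the 5 synthetases that had one, against 39 of all 32851 promoters (0.119%). The 8 were Hspa5, Hsp90b1 with 2 matches, Dnajc3, Pdia6, Calr, Canx, Creld2 and Syvn1, of which 5 were higher in coculture, 0 lower and 3 not past the threshold. Only this order and spacing was searched. The Herpud1 stretch above, of a gene that fell, holds the letters ATTGG, 1 base and CCACG, which the search did not cover. Of the 8 tested genes outside the 44 with the element, 4 were higher (50%) and 1 lower (12.5%), against 22.8% and 15.9% of those with any promoter. No match overlapped one of the ATF4 element. The UPR element letters TGACGTGG occurred in 0 of the 39 promoters, against 0.676% of all. Stretches of 3 of the higher genes are shown with the element in capitals, 5′ to 3′ on the gene's strand, for Hspa5 at chr2:34772020-34772049 (plus strand), Hsp90b1 at chr10:86705510-86705694 (minus) and Creld2 at chr15:88819486-88819645 (plus), from RefSeq, GRCm38.p6.
Hspa5: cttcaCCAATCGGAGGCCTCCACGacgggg
Hsp90b1: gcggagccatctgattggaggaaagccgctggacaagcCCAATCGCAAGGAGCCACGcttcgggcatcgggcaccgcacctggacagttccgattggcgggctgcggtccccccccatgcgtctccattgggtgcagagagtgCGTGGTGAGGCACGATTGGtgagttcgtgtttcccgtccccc
Creld2: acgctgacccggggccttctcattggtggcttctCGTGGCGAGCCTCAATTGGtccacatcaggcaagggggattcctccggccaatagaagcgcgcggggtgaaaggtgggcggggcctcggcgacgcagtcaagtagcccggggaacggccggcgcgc
Capitals that begin CCAAT are on the gene's own strand and those that end ATTGG are the same element on the other strand, so Hsp90b1 carries 1 of each. The Hspa5 site lies inside the deposited gene model, which begins at 34771970.

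Levels between genes were compared per gene length, in deposited FPKM of lone cells. The 44 genes ran from 1.71 FPKM for Pycr1 to 627 FPKM for Calr, with a median of 75.3 FPKM. Among ATF4 targets Shmt2 was highest at 190.4 FPKM, above Atf4 at 136 FPKM, and among synthetases Nars at 187 FPKM was highest and Aars at 39.1 FPKM lowest. In coculture the same genes stood at 1.09 FPKM for Pycr1, 676 FPKM for Calr, 135 FPKM for Shmt2, 159 FPKM for Nars and 34.9 FPKM for Aars. The deposited model of Aars is 9282 bases long, 14.3% of them shared with Exosc6 (mean count 0), and its FPKM depends on that length. Ddit3, although higher in coculture, was a minor message beside Atf4, with 15.2 FPKM in coculture and 10.6 FPKM alone.

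The wider ATF4 programme, other genes that ATF4 is known to raise, was tested in the same way. Of 17 tested of 19 on the list, 4 were higher, 10 lower and 3 not past the threshold, with a median log2 change of -0.20 (Cbs and Fgf21 were not tested). That is 23.5% higher and 58.8% lower, against 21.7% and 15.2% of all genes tested, so the higher share is near that of all genes. The genes with the largest changes rose far more than any of the 44. Vldlr, a lipoprotein receptor, had 989 counts in the 3 cocultured libraries together and 0 alone, which is at least 341-fold higher when 3 counts over the group are taken as the floor. Stbd1, a glycogen-binding protein, had 337 counts in coculture and 1 alone, a ratio of 349 whose exact 95% interval, for counting error only, is 62.1 to 13807. Without the cocultured libraries neither would have passed the filter on low counts. Gdf15, a secreted stress hormone, averaged 13.4 ± 0.904 CPM in coculture and 0.864 ± 0.662 CPM alone (SD, n = 3 each, log2 3.91). Its lone counts of 9, 6 and 28 would not have passed that filter either. With genes held to at least 1 CPM alone, the higher count was 1 in place of 4. The renal markers given above moved in the same direction, and their part in these values was not tested.

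Named after their values were seen, Ddit4 and Atf3 lay at opposite ends of the remaining genes. Ddit4, an inhibitor of mTORC1, averaged 24.1 ± 0.987 CPM in coculture and 7.88 ± 2.48 CPM alone (SD, n = 3 each; log2 1.60, adjusted p = 1.11e-09). Atf3, a stress-induced repressor of inflammatory genes, averaged 35.3 ± 5.78 CPM in coculture and 78.9 ± 11.3 CPM alone (log2 -1.16, adjusted p = 2.36e-10).

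Amino acid transporters of the ATF4 programme showed 5 lower, 0 higher and 4 not past the threshold among 9 tested of 11. That is 55.6% lower, against 15.2% of all genes tested, and 0% higher, against 21.7%. Among genes at least as abundant alone as Pycr1, 20.2% were lower and 16.6% higher. Slc1a4, a carrier of small neutral amino acids, averaged 15.0 ± 1.53 CPM in coculture and 21.4 ± 2.95 CPM alone (SD, n = 3 each; log2 -0.51, adjusted p = 0.000779). Slc38a2, the sodium-coupled system A carrier, had a log2 change of -0.22 (adjusted p = 5.03e-05), and Slc36a4, a carrier of proline and tryptophan, one of -0.18 (adjusted p = 0.0141). The lower count was 3 without coculture replicate A, and Slc36a4 lost its call there (adjusted p = 0.0717) and without alone replicate B (0.0775) or C (0.0586), with a range over its alternatives of 0.00228 to 0.0775.

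The 12 other cytosolic synthetases had 6 lower, 1 higher and 5 not past the threshold, with a median log2 change of -0.096. Of all genes tested 15.2% were lower and 21.7% higher, against 50% and 8.33% of these 12. Among genes at least as abundant alone as Pycr1, 20.2% were lower and 16.6% higher. Cars, for cysteine, averaged 119 ± 4.71 CPM in coculture and 159 ± 6.84 CPM alone (SD, n = 3 each; log2 -0.42, adjusted p = 1.6e-07). Yars, for tyrosine, had a log2 change of -0.34 (adjusted p = 8.23e-07) and Eprs, for glutamate and proline, one of -0.18 (adjusted p = 0.000527). Kars, for lysine, was the 1 higher (log2 0.16, adjusted p = 0.00765), and without coculture replicate B the higher count was 0. Whether the 2 sets of synthetases differ was not tested.

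Genes around eIF2alpha itself, 7 on this list, had 1 higher, 3 lower and 3 not past the threshold. That is 14.3% higher and 42.9% lower, against 21.7% and 15.2% of all genes tested. Among genes at least as abundant alone as Pycr1, 16.6% were higher and 20.2% lower. Impact, an inhibitor of the amino acid sensor GCN2, averaged 40.6 ± 1.78 CPM in coculture and 59.3 ± 4.49 CPM alone (SD, n = 3 each; log2 -0.55, adjusted p = 4.58e-07). Ppp1r15b, a phosphatase subunit that resets eIF2alpha, had a log2 change of -0.30 (adjusted p = 3.79e-06). Ppp1r15a, another such subunit, was counted in the wider ATF4 programme and was lower too (log2 -0.56, adjusted p = 7.23e-07). The third lower gene of the 7, named after its values were seen, was Eif2ak4, which encodes GCN2 (log2 -0.18, adjusted p = 0.0383). Its groups overlapped, and the lower count of the list was 2 in some of the alternatives. Eif2ak3, which encodes PERK, did not pass the threshold (log2 -0.048, adjusted p = 0.692). Eif2ak2, the interferon-induced kinase PKR, was the 1 higher, with 191 ± 9.56 CPM in coculture and 147 ± 2.66 CPM alone (log2 0.38, adjusted p = 2.93e-07).

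Beyond the 20 ER genes, 24 other ER folding genes had 3 higher, 3 lower and 18 not past the threshold. At 12.5% each way, the list was below the 21.7% higher and 15.2% lower of all genes tested. Ero1l, the oxidase that feeds the isomerases, averaged 225 ± 37.2 CPM in coculture and 143 ± 19.0 CPM alone (SD, n = 3 each; log2 0.65, adjusted p = 5.95e-07). Sec61b, part of the translocon through which proteins enter the ER, had a log2 change of -0.30 (adjusted p = 0.000279). Pdia5, another isomerase, had one of -0.24 (adjusted p = 0.0262), and was not past the threshold without coculture replicate B (adjusted p = 0.0909) or C (0.0763), without alone replicate B (0.107) and by DESeq2 (0.0887), with a range over its alternatives of 0.021 to 0.107. The lower count was 1 without alone replicate B.

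Of 15 other ERAD genes tested of 16, 2 were higher, 1 lower and 12 not past the threshold. These shares, 13.3% and 6.67%, were below the 21.7% and 15.2% of all genes tested. Os9, a lectin that delivers glycoproteins to the HRD1 ligase, had a log2 change of 0.16 (adjusted p = 0.0143), which did not pass without coculture replicate C (adjusted p = 0.0844) or alone replicate B (0.0651), with a range over its alternatives of 0.00652 to 0.0844. Without coculture replicate C the higher count was 1. Vcp, the ATPase that pulls substrates out of the membrane, had one of -0.12 (adjusted p = 0.0325), lost without coculture replicate A (adjusted p = 0.0746) or B (0.13), without alone replicate B (0.199) and among genes of at least 1 CPM alone (0.0756), with a range over its alternatives of 0.00884 to 0.199, and the lower count was then 0.

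**Figure D4:**
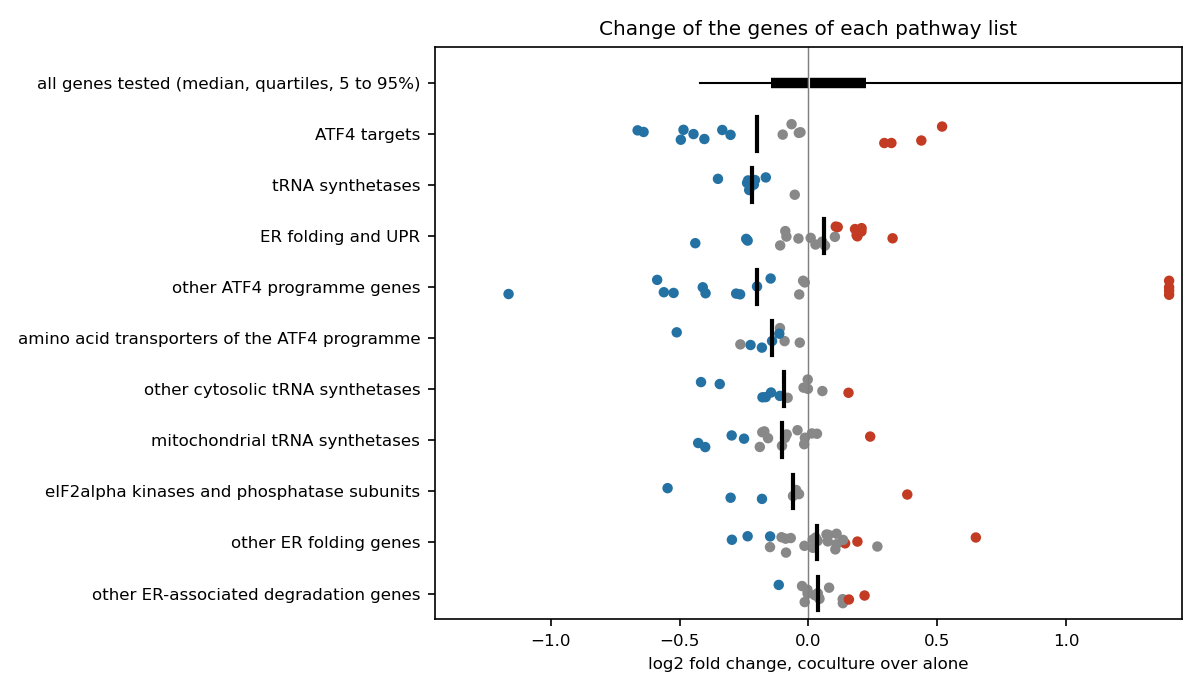
Log2 fold change of each gene tested (points), coculture over alone, in the 3 lists of the 44 genes and in 7 further pathway lists, with the list's median as a black bar; red is higher, blue lower and grey not past the threshold. The top row gives the median, quartiles and 5 to 95% range of all genes tested, and the 4 genes at the right edge of the ATF4 programme row (Vldlr, Stbd1, Gdf15 and Ddit4) lie beyond the axis.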

How the data were processed

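RNA of 6 libraries of sorted RAW264.7 cells was measured by sequencing of poly-A selected RNA, 3 after 48 h of coculture and 3 alone, per the labels. Per the submitters' processing notes, the build was mm10 and the tools included featureCounts 1.5.0-p3, HISAT2 2.0.5, edgeR 3.22.5 and DESeq2 1.20.0, with no role stated for any. The sources used here do not say whether counting used strand; reads of overlapping genes on opposite strands could then not be told apart, and genes with near-identical copies (Phgdh, Calr) may share reads with their pseudogenes. The authors deposited raw counts per gene with names and coordinates, per the file headers, and FPKM values of the same libraries. The deposited FPKM equalled the count over gene length and library total within a factor of 0.996 to 1.00 per library. There were 0 columns of other samples and 0 rows without a gene. A second gene ID named Ddit3 had 0 counts in all libraries and was not used.

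Libraries of 1 group differed beyond sampling noise (chi-square per degree of freedom 3.10 to 4.82 over genes). The labels do not say that shared letters mark a shared culture or day, so the block was used only as an alternative. Deviations of same-lettered libraries had r of 0.0034 to 0.039, and those of other pairs -0.034 to 0.014. Deposited counts were tested with edgeR 4.0.16 (R 4.3.3), by its quasi-likelihood F test, with TMM scaling, filterByExpr (12972 genes kept) and group as the only term. Benjamini-Hochberg adjusted p under 0.05 over all tested genes was the threshold, and SE was computed as |log2 fold change| divided by the root of F. CPM use TMM-scaled library sizes. On data simulated from these libraries, the test found 56.7% of genes with a true log2 change of 0.3, 97% at 0.5 and 100% at 1, and 5.06% of its calls were unchanged genes. The simulation changed few genes and gave all genes the common coefficient of variation, so these rates need not hold for the data.

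The 44 genes and all lists were chosen with earlier results of these data known. Values of every library are given for the factors and sensors and for up to 6 further genes past the threshold per list with the largest changes, and some others were added for their roles; from each further list up to 3 genes past the threshold with the largest changes and at least 1 CPM are named, of which some are not reported here. Alternatives were DESeq2 1.42.0 (Wald test and size factors), upper quartile scaling, 3 other filters, the replicate block and leaving out each library. Promoters are RefSeq windows of GRCm38.p6, and stretches inside the deposited gene model were left out, except sites of 30 bases.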

Additional observations from a re-analysis of the deposited data

How the results depend on the processing

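Of the counts of changed genes among the 44 and over all genes, those of the ER genes that were lower moved by more than 1.5 times, to 5 with upper quartile scaling and to 5 with no filter, against 3; the 2 added were Xbp1 and Canx. The other counts stayed within 1.5 times in all 13 alternatives. Over all genes, 2586 to 2837 were higher and 1557 to 1767 lower when 1 library was left out, and 2022 to 3169 higher and 1483 to 2132 lower under the other settings, against 2819 and 1974. With the replicate block 2815 genes were higher and 1951 lower, with 12 higher and 18 lower of the 44, the same genes as without it; deviations of same-lettered libraries had r of 0.0034, 0.021 and 0.039 over genes, and the block changed no call of the 44. Directions turned only for genes near 0 and past no threshold. Syvn1 stood at a log2 change of -0.00013 with upper quartile scaling and between -0.021 and 0.030 when 1 library was left out, Chac1 between -0.11 and 0.12, and Dnajb9 between -0.019 and 0.16. The cause was not tested. The lowest count of the 44 was 58, for Pycr1. Changes under a log2 of 0.3 were called for several of the 44, such as 0.11 for Calr, but small ones can be missed with 3 libraries a group.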

Other observations

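Mitochondrial tRNA synthetases, which charge tRNAs inside the organelle, were mostly not past the threshold: of 17 tested, 1 was higher, 4 lower and 12 not past the threshold, with a median log2 change of -0.10. That is 5.88% higher and 23.5% lower, against 21.7% and 15.2% of all genes tested and 16.6% and 20.2% of those at least as abundant alone as Pycr1 (whether they differ from the cytosolic enzymes was not tested). Wars2, for tryptophan, averaged 19.0 ± 0.980 CPM in coculture and 25.5 ± 1.80 CPM alone (SD, n = 3 each; log2 -0.43, adjusted p = 0.000645 by edgeR), while cytosolic Wars did not pass. Sars2, for serine, had a log2 change of -0.30 (adjusted p = 0.0138), which missed the threshold without coculture replicate C (0.0505), without alone replicate B (0.0508) and by DESeq2 (0.0523), with a range over its alternatives of 0.0112 to 0.0523. The 1 higher was Lars2, for leucine, named after its values were seen (log2 0.24, adjusted p = 0.0388). With upper quartile scaling, by DESeq2, and without coculture replicate B, alone replicate A or alone replicate B the higher count was 0. The cytosolic one-carbon enzymes, also picked after their values were seen, had log2 changes of -0.20 for Mthfd1 (adjusted p = 0.00122) and -0.014 for Shmt1 (adjusted p = 0.888), beside -0.48 for Mthfd2 and -0.50 for Shmt2 of the mitochondrial branch.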
